A study of Mus musculus with 2 samples.

Results

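Of the 6994 autosomal chromatin boundaries mapped in mouse olfactory neurons, 917 lay where a protein-coding gene ended and none began. They were chosen by position alone. Each boundary is an interval of 5 kb, and a boundary was taken when that interval, widened by 10 kb on each side to a window of 25 kb, held the 3′ end of at least 1 protein-coding gene model and no protein-coding transcription start site (TSS). They are called 3′-end boundaries here. The whole list, with the X chromosome, held 7367 boundaries.

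The cells were mature olfactory sensory neurons in which the odorant receptor Olfr1507, also known as MOR28, is the receptor expressed. They were sorted by fluorescence from the olfactory epithelium of adult MOR28-GFP mice of the 129P2/OlaHsd strain and of mixed sex, with no treatment, as 2 biological replicates of 170000 and 220000 cells. Chromatin was fixed with 1% formaldehyde and cut with DpnII for in situ Hi-C. The contacts of both replicates were combined before boundaries were called, so the data are 1 list for 1 group, with no spread between replicates. The cell type cannot be checked against marker genes, since the list holds no expression values.

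In Hi-C maps, a boundary separates stretches of chromatin that contact themselves more than each other. In mammals many boundaries hold sites of CTCF, a DNA-binding protein that halts the cohesin complex as it extrudes loops of chromatin, and a site halts it in 1 orientation. Active transcription start sites are also known to lie at boundaries, and RNA polymerase can carry on past the 3′ end of a gene before it leaves the DNA.

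Letters of the CTCF core motif are shown for 6 strong 3′-end boundaries with a match within 5 kb of the midpoint. These letters show what the motif counts given further on rest on. Matches in annotated untranslated regions and on part of the autosomes were set aside before the strongest were taken. The 6 are therefore not simply the strongest boundaries with a match, and their mostly intergenic locations follow in part from that choice. Each sequence is 60 bases of the GRCm38 reference, which is of another strain than the mice, written 5′ to 3′ on the strand of the match, with the 12 bases of the match in capitals.
Txnrd3, chr6:89680351-89680410, forward strand, intergenic: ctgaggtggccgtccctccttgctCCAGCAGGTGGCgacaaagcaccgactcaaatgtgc
Caln1, chr5:130853554-130853613, reverse strand, intergenic: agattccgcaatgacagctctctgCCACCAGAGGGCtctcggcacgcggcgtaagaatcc
Tas1r2, chr4:139685704-139685763, forward strand, intergenic: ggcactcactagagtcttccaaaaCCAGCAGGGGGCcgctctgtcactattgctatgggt
Tyw3, chr3:154572488-154572547, reverse strand, intergenic: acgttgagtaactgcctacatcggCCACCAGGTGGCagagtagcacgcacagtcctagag
Dok2, chr14:70780916-70780975, forward strand, intergenic: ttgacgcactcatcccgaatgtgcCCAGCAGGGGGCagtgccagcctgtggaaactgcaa
Lama4 and Fam229b, chr10:39121615-39121674, forward strand, exon of Fam229b: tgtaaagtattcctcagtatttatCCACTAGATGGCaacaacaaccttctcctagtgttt

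The genes named are those whose 3′ ends lie at the boundary. The matches lay between 1.08 kb (Caln1) and 4.98 kb (Tyw3) from the midpoint, and the boundaries had strengths from 2.67 (Txnrd3) to 1.93 (Lama4 and Fam229b). Each of the 6 had 1 match in that range.

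The 3′-end boundaries made up 13.1% of the autosomal boundaries (95% Wilson interval 12.3 to 13.9). Of all 480659 autosomal bins of 5 kb, classified by the same rule, 7.88% were of this kind, so the share at boundaries was 1.66 times the share over the genome. The ratio was above 1 on 19 of 19 autosomes, with a mean of 1.66 ± 0.285 (SD over autosomes) and a range from 1.18 on chromosome 12 to 2.40 on chromosome 18. Windows with a TSS but no 3′ end were 1.71 times as frequent among boundaries as among bins, and windows with both 1.74 times. Windows inside a gene body, with neither end, reached only 0.660 times their share of the genome, and windows with no coding gene 0.823 times. A 3′ end without a TSS was therefore over-represented at boundaries by about as much as a TSS without a 3′ end.

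The rule was applied to 1 TSS per gene model. When the 5′ ends of all annotated transcripts of coding genes were barred from the window, 595 boundaries remained, 8.51% of the autosomal list, and their share was 1.69 times that of bins. With the TSSs of all annotated genes of any kind barred, 647 remained, at a ratio of 1.62. With the interval not widened, 384 boundaries met the rule (5.49%). The ratio lay between 1.59 and 1.97 under every window width, strength limit and gene set tried.

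Boundary strength, the authors' score for each boundary, ran from 0.201 to 2.71 over the 917, with a mean of 0.813 ± 0.510 (SD over boundaries) and a median of 0.683 (95% interval 0.640 to 0.724). The list calls a boundary strong from a score of 0.5 upwards. Of the 3′-end boundaries 601 were strong (65.5%, interval 62.4 to 68.5), against 56.0% of all autosomal boundaries. This was 11.0 percentage points above the other autosomal boundaries (Newcombe interval 7.62 to 14.2). It was 11.9 points above gene-body boundaries (7.70 to 15.9) and 18.4 points above boundaries with no coding gene (14.7 to 21.9).

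Boundaries with a TSS and no 3′ end were strong in 65.6% of cases, and the difference from 3′-end boundaries was -0.067 points (-4.29 to 4.14). Boundaries with both features were strong in 64.0%, a difference of 1.54 points (-2.70 to 5.77). These intervals leave room for a difference of a few points either way. The mean strengths differed by 0.001 from the TSS boundaries (-0.045 to 0.047) and by -0.013 from those with both (-0.060 to 0.034).

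**Figure D1:**
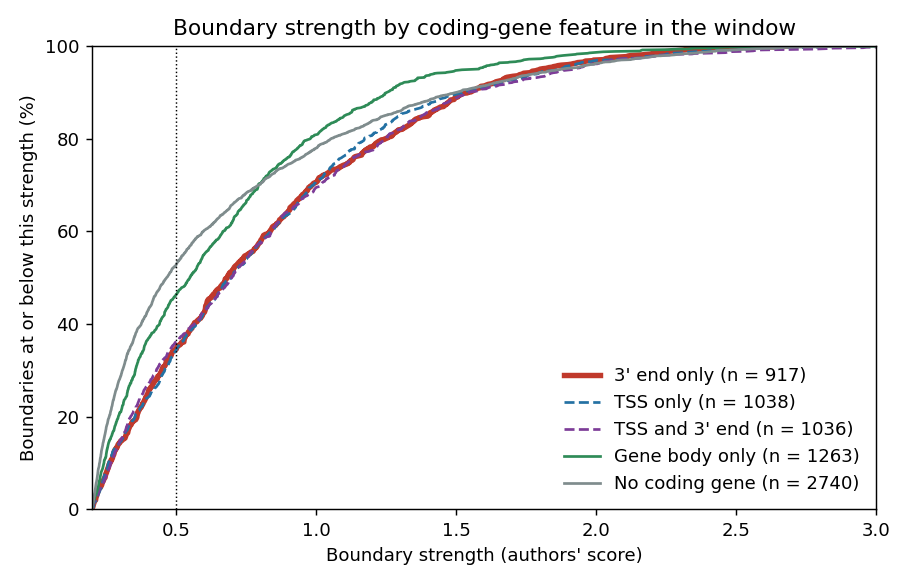
Cumulative share of autosomal boundaries (y, percent) at or below each strength (x, the authors' score, axis cut at 3) for 5 kinds of window; the dotted line marks the strong class. The curves of the 917 3′-end boundaries, the TSS boundaries and those with both run together, to the right of gene-body boundaries and, up to a strength of about 1.5, of boundaries with no coding gene.

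The same order was seen by chromosome. The mean strength of 3′-end boundaries was above that of gene-body boundaries on 19 of 19 autosomes, by 0.142 ± 0.083 on average, and above that of boundaries with no coding gene on 19 of 19, by 0.125 ± 0.065. It was above that of TSS boundaries on 8 of 19 and above that of boundaries with both on 5 of 19. By autosome the 3′-end mean ran from 0.700 on chromosome 14 to 0.930 on chromosome 9, and chromosome 14 was the 1 autosome where it lay below the mean of all other boundaries.

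**Figure D2:**
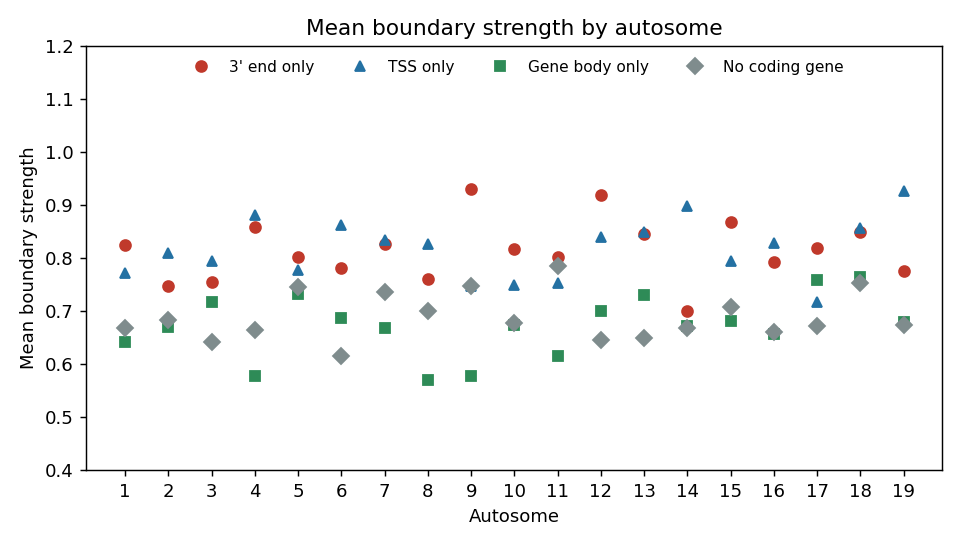
Mean boundary strength (y) on each autosome (x) for 4 kinds of window, without error bars. The 3′-end boundaries lie above the gene-body and no-gene means on 19 of 19 autosomes and cross the TSS means, lying above them on 8.

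The strongest was past the end of Sec23ip, whose product binds the COPII coat of vesicles leaving the endoplasmic reticulum, at chr7:128790001-128795000, with a strength of 2.71. It ranked 22 among all autosomal boundaries. Sec23ip ended 7.66 kb before the midpoint, and the next coding gene in its direction lay 472 kb on. Txnrd3, a thioredoxin reductase, ended 6.97 kb before the midpoint of chr6:89680001-89685000, which scored 2.67. Aptx, an enzyme of DNA strand-break repair, ended 9.88 kb before the midpoint of chr4:40670001-40675000, which scored 2.65. Utp18, a factor of ribosome assembly, ended 6.74 kb before the midpoint of chr11:93850001-93855000, at 2.51.

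The next boundaries in rank lay at 1700018B08Rik (2.42), at Pdcd6ip, which codes for an adaptor of the ESCRT machinery (2.41), at the anoctamin gene Ano5 (2.41) and at Psmg1, a chaperone of proteasome assembly (2.32). Then came 2 windows where genes ended from both sides, at Smn1 and Naip2 (2.32) and at Lactbl1 and Ephb2 (2.30). Ttc5 (2.27) and Odr4 (2.25) completed the 12 strongest. The genes at the first 4 all stopped short of the midpoint, by 6.74 to 9.88 kb, whereas Ano5, Ttc5 and Odr4 ran through it by 6.21, 2.09 and 6.20 kb.

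Most windows held a single gene end. There were 1063 coding 3′ ends of 1063 genes, 771 boundaries with 1 and 146 with 2, and no window held more. Genes of the plus strand alone ended at 383 boundaries and genes of the minus strand alone at 394. Their median strengths were 0.683 and 0.689.

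Genes ended from both strands, as a convergent pair, at 140 boundaries (15.3%, interval 13.1 to 17.7). Among bins of the same kind 15.9% held both strands, so convergent pairs were about as frequent here as in the genome at large. Of the 140 pairs, 116 faced each other with a gap between their ends and 24 overlapped. Convergent boundaries were strong in 64.3% of cases and those with 1 strand in 65.8%, a difference of -1.48 points (-10.3 to 6.72). The median strengths were 0.664 (0.577 to 0.755) and 0.688 (0.633 to 0.740). The 24 overlapping pairs had a median of 0.555 (0.452 to 0.811). The convergent share depends on the window, and was 7.55% when the bare interval was used.

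At the strongest convergent boundary, chr13:100135001-100140000, Smn1, which serves the assembly of spliceosomal RNA-protein particles, ended 190 bp past the midpoint, and Naip2, an innate immune sensor of bacterial proteins, ended 6.56 kb on the far side. The gap between the ends was 6.37 kb. At chr4:136635001-136640000 the gap between Lactbl1 and the ephrin receptor gene Ephb2 was 8.43 kb. Lama4, a laminin chain, and Fam229b ended 8.62 kb apart at chr10:39115001-39120000, which scored 1.93. Sftpb, a protein of lung surfactant, and the splicing factor gene Usp39 ended 4.31 kb apart at a boundary of 1.78. Pou3f1, a POU-domain transcription factor, and Utp11 ended 17.5 kb apart at a boundary of 1.77. The last 3 of these windows each held 1 CTCF core match and the first 2 held none.

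A gene covered the midpoint of its boundary, and so ran through it, for 490 of the 1063 ends (46.1%, 43.1 to 49.1), against 47.4% of the ends in bins of the same kind. The rest ended before reaching the midpoint. The 485 boundaries with the midpoint inside such a gene had a median strength of 0.636 (0.603 to 0.685), and the 432 with the midpoint outside had 0.760 (0.683 to 0.812). The medians' intervals overlap slightly. The strong shares were 63.3% and 68.1%, a difference of -4.76 points (-10.8 to 1.41).

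Distance from the end to the midpoint did not order the strengths. With the nearest end within 2.5 kb the median was 0.635 (n = 206), between 2.5 and 5 kb 0.707 (n = 196), between 5 and 7.5 kb 0.736 (n = 172), between 7.5 and 10 kb 0.612 (n = 203) and beyond 10 kb 0.832 (n = 140). The 55 boundaries with an end 9 to 10 kb outside the interval, just within the rule, had a median of 0.778, and 61 that missed it by up to 1 kb had 0.702. The 42 whose nearest TSS lay just outside the window, by up to 1 kb, had 0.593, and 47 that were left out because a TSS lay up to 1 kb inside it had 0.988.

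Ends among the closest to a midpoint were those of Slc29a4, a monoamine transporter (10 bp), Gc, the vitamin D-binding protein (22 bp), Uchl5, a deubiquitinase of the proteasome (34 bp), and Scn2a, a voltage-gated sodium channel (53 bp). Their strengths were 0.806, 0.802, 0.847 and 1.23. Slc29a4 faced Tnrc18 across a gap of 2.17 kb, with 2 CTCF core matches in the window. All 4 were in the strong class.

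The position of 3′ ends was also measured without the rule, around all 6994 autosomal boundaries, for genes longer than 25 kb, each laid out in its own direction of transcription. The 3′ ends were most frequent 10 to 15 kb before the midpoint, at 40.6 per 1000 boundaries in a step of 5 kb. From 10 to 15 kb past the midpoint there were 19.7. The mean was 32.3 within 15 kb of the midpoint and 21.1 at 50 to 100 kb, a ratio of 1.53. In the 15 kb before the midpoint it was 37.5 and in the 15 kb after it 27.2. TSSs of the same genes peaked in the 5 kb just past the midpoint, at 45.2.

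There were thus 786 ends of these longer genes in the 15 kb before a midpoint and 570 in the 15 kb after it, a ratio of 1.38 (1.24 to 1.54). It was 1.43 at strong boundaries and 1.53 at the 1749 strongest. With coding genes of all lengths it was 1.01 (0.945 to 1.09), from 1607 ends before and 1587 after. The genes up to 25 kb, left out above, thus had more ends after the midpoint than before it. The excess before the midpoint held for the longer genes and was not seen over all genes.

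**Figure D3:**
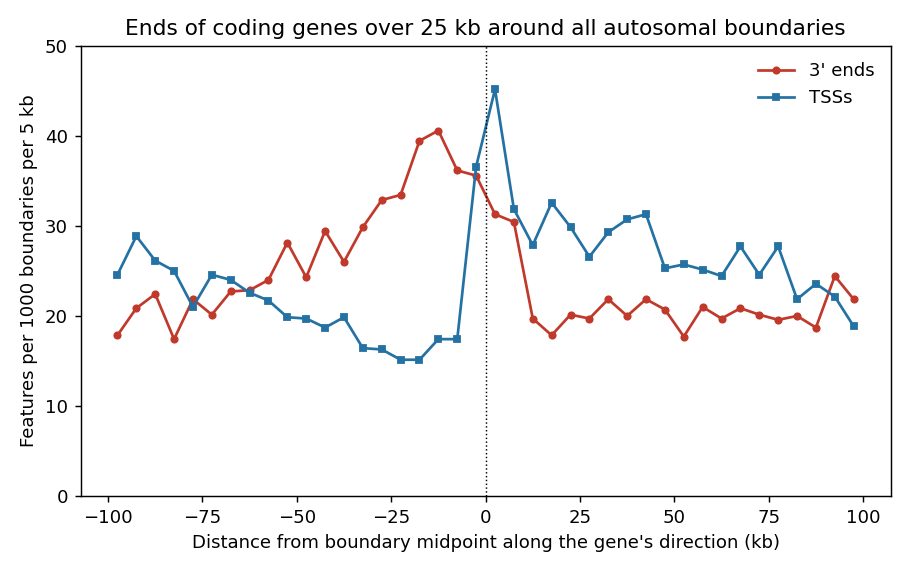
Number of 3′ ends (circles) and TSSs (squares) of coding genes over 25 kb per 1000 autosomal boundaries in steps of 5 kb (y), against the distance from the boundary midpoint along the direction of the gene (x, kb). The 3′ ends reach 40.6 at 10 to 15 kb before the midpoint and the TSSs 45.2 just past it.

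The genes that ended at these boundaries were long, with a median of 46.7 kb against 17.6 kb for all autosomal coding genes. The rule favours long genes, since a gene shorter than the window often brings its own TSS into it. Weighted in the same way, ends in bins of the same kind belonged to genes with a median of 41.9 kb. Of genes up to 10 kb long 0.768% ended at a 3′-end boundary, of genes of 100 to 200 kb 12.2% (10.6 to 14.0). The share of genes that ended at an autosomal boundary of any kind moved less, from 12.8% of the genes up to 10 kb to 17.97% of those of 100 to 200 kb and 13.9% of longer ones.

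**Figure D4:**
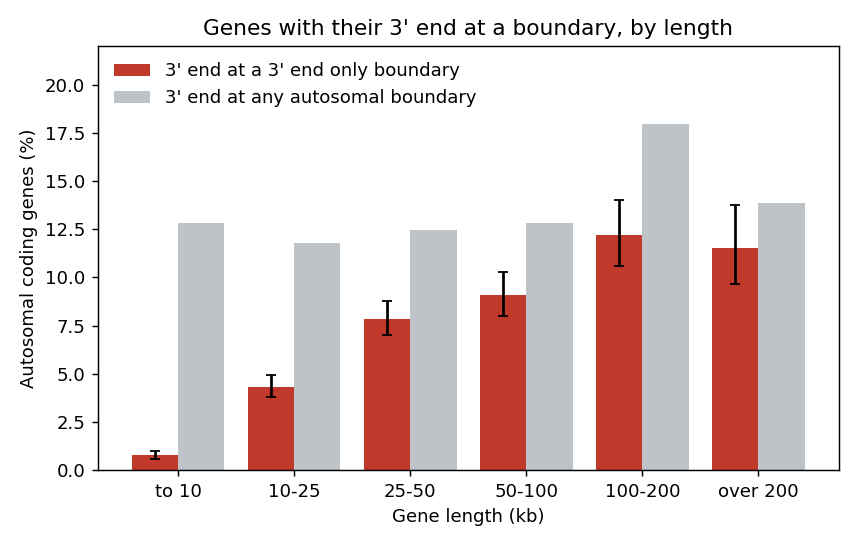
Share of autosomal coding genes (y, percent) in 6 classes of length (x, kb) whose 3′ end lay at a 3′-end boundary (dark bars, with 95% Wilson intervals) or at any autosomal boundary (light bars). The dark bars rise from 0.768% to 12.2%, and the light bars from 12.8% to 17.97% at 100 to 200 kb.

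Within the set, the boundaries of the shortest genes had the highest median strength. The 306 boundaries whose longest ending gene was at most 33.6 kb had a median of 0.776 (0.693 to 0.850) and were strong in 71.9% of cases. The 305 with genes of 33.8 to 91.3 kb had 0.625 (0.574 to 0.683) and 62.0%, and the 306 with longer genes 0.669 (0.593 to 0.786) and 62.7%. The interval of the shortest genes lies above that of the middle set and overlaps that of the longest.

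The longest genes were Magi2, a synaptic scaffold of 1478 kb, at a boundary of 1.05, Auts2 (1106 kb, 1.44), the acid-sensing channel gene Asic2 (1088 kb, 1.08), the cadherin gene Cdh13 (1041 kb, 0.807) and Adgrl3, an adhesion receptor of neurons (805 kb, 0.389). The first 4 were at strong boundaries.

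Past their ends, 545 of 984 genes that did not end inside another gene met a convergent neighbour (55.4%, 52.3 to 58.5), and 439 one on the same strand. Over all autosomal coding genes the convergent share was 44.1%, and over ends in bins of the same kind 53.2%, inside the interval of the 3′-end boundaries. The gap to the next gene had a median of 31.2 kb, against 29.5 kb for those bins. Only 79 ends lay inside another coding gene (7.43%), against 11.6% in the bins. The nearest TSS was a median of 30.3 kb from the midpoint, and at 560 boundaries it was the TSS of a gene that ended there.

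Some genes reached from 1 boundary to another. Of the 1063 genes, 32 also had their TSS in the window of an autosomal boundary (3.01%). This was a smaller share than in the background: 2744 of all 20807 autosomal coding genes, and 12.8% of those over 25 kb. The rule bars a TSS from the window of the 3′-end boundary itself. For 30 of the 32 the TSS lay at the neighbouring boundary, so that the gene filled the domain between. These domains had a median of 205 kb (60 to 805 kb). Among genes over 100 kb, 31 of 283 with their 3′ end at a 3′-end boundary had the TSS at a boundary (11.0%), against 14.3% of all 2372 such genes. The 3′ boundary was the stronger of the pair for 17 of the 30 and the TSS boundary for 13, and both were strong for 11.

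The strongest 3′ boundaries of this kind were those of Tjp1, a scaffold of tight junctions (1.47, with 0.260 at its TSS), the transcription factor gene Tead1 (1.35 and 0.805), the histone deacetylase gene Hdac4 (1.29 and 0.480), Fstl5 (1.21 and 2.81) and Slc22a23 (1.12 and 0.769). Ebf3, a transcription factor of the Olf/EBF family that is active in olfactory neurons, filled 125 kb between a boundary of 2.50 at its TSS and one of 0.659 at its 3′ end. Nrp2, a receptor for semaphorins that guides olfactory axons, ran for 115 kb from a boundary of 1.38 to one of 0.484.

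The CTCF core motif, a pattern of 12 bases that stands for the centre of the binding site, was found on either strand in 311 of the 917 windows (33.9%, 30.9 to 37.0). Over bins of the same kind the share was 18.9%, a ratio of 1.79. Over all autosomal boundaries it was 24.6%, against 11.3% of all autosomal bins, a higher ratio of 2.19. The reversed pattern, used as a control, was found in 6 windows. It always begins with the bases CG, a pair the motif never holds. In the genome it had 339 matches against 12728 of the motif. Its low count is therefore no measure of how specific the motif is to these boundaries. Boundaries with a TSS and no 3′ end held a match in 22.9% of cases, 11.0 points fewer (6.99 to 15.0). Boundaries with both features held one in 32.0%, gene-body boundaries in 26.8% and those with no coding gene in 18.4%. Set against bins of their own kind, the ratio was 1.51 for TSS boundaries and 1.58 for those with both features. It was 2.48 for gene-body boundaries and 2.32 for those with no coding gene, both above the 3′-end boundaries. G and C made up 44.8 ± 3.92% of the bases of the 3′-end boundaries and 43.9% of those of the bins, and the part of base composition in the motif share was not tested. The share depends on the window and the pattern: it was 6.25% in the bare interval and 86.4% with a looser form of the motif.

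Of the boundaries with a match 73.0% were strong, against 61.7% of the 606 without, a difference of 11.3 points (4.85 to 17.4). Their median strengths were 0.744 and 0.631. Among boundaries with no coding gene 70.6% were strong with a match and 41.9% without.

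The matches pointed away from the midpoint. To its left, within 12.5 kb, the forward strand held 87 of 218 matches (39.9%), and to its right 124 of 186 (66.7%), a difference of 26.8 points (17.1 to 35.7). Within 50 kb the shares were 34.4% and 66.0%, a difference of 31.6 points (25.5 to 37.4). The other autosomal boundaries differed by 25.0 and 29.9 points in the same ranges. Forward matches were densest in the 5 kb right of the midpoint, at 67.6 per 1000 boundaries, and reverse matches in the 5 kb left of it, at 58.9. For convergent boundaries the difference was 20.1 points within 12.5 kb (-3.37 to 40.8), an interval that includes 0, and 37.6 points within 50 kb (22.9 to 50.1). For those with ends on 1 strand it was 28.2 points (17.6 to 37.8) and 30.3 points (23.5 to 36.7). The order of these 2 kinds turned with the range.

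**Figure D5:**
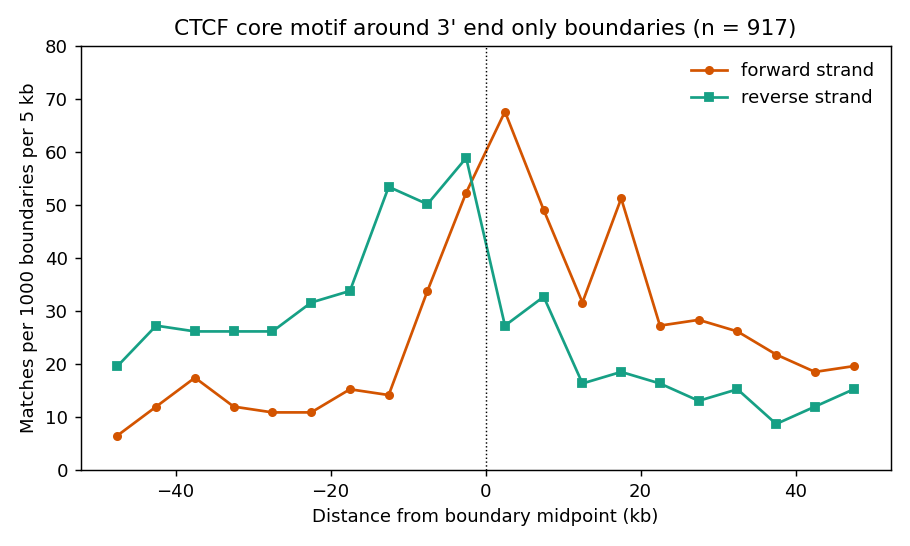
Matches of the CTCF core motif on the forward (circles) and reverse (squares) strand per 1000 of the 917 3′-end boundaries in steps of 5 kb (y), against the distance from the midpoint (x, kb). Forward matches peak at 67.6 just right of the midpoint and reverse matches at 58.9 just left of it.

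Read along the gene, the matches differed with where the gene stopped. Where the gene ran through the midpoint (379 boundaries with ends on 1 strand), 59 matches lay on the side the gene came from, 23.7% of them in its direction, and 97 on the far side, 64.9% in its direction. Where the gene stopped short (398 boundaries), 103 lay on the near side, 52.4% in its direction, and 77 on the far side, 74.0%. The density on the near side was 156 per 1000 boundaries in the first case and 259 in the second, and on the far side 256 and 193. In both cases the side with more matches was the side on which the gene ended. These counts have no interval and were not made in bins of the same kind or at other boundaries. Whether the pattern is particular to 3′-end boundaries was not tested.

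The gene classes at these boundaries were uneven. Of all 20807 autosomal coding genes 5.11% ended at a 3′-end boundary, and of the 13672 genes that ended in a bin of the same kind 7.78%. Ion channel genes had 24 of 170 (14.1%, 9.67 to 20.1), and 16.6% of those that ended in such a bin. At 18 of their 24 boundaries the class was strong, with a median of 0.756. The strongest were those of Cngb3, a subunit of the cyclic nucleotide-gated channel of cone cells (1.61), Cacng2, an auxiliary subunit that also serves glutamate receptors (1.61), and Trpc7, a cation channel (1.51). These 3 genes are 230, 128 and 123 kb long.

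Solute carriers had 29 of 372 (7.80%, 5.48 to 11.0), and 9.93% of those that ended in a bin of the same kind, led by Slc3a2, a chain of amino acid exchangers (1.68), Slc26a5, the motor protein of outer hair cells (1.57), and the peroxisomal carrier gene Slc25a17 (1.44). Collagens had 4 of 43 (9.30%, 3.68 to 21.6), and 9.76% of those in such bins, led by Col6a6 (1.48) and Col13a1 (1.40). Zinc finger genes had 17 of 455 (3.74%, 2.35 to 5.90), of which 12 were at strong boundaries, led by Zfp169 (2.16), Zfp622 (2.03) and Zbtb16 (1.72). Of the zinc finger genes that ended in a bin of the same kind, the share was 4.99%. Of 82 cytosolic ribosomal protein genes 3 ended at such a boundary (3.66%, 1.25 to 10.2), Rps15a (1.99), Rps14 (1.16) and Rpl3 (1.04). Only 15 of the 82 ended in a bin of the same kind, and 3 of 15 is 20%, so the share lay below that of all genes on the first count and above it on the second.

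Odorant receptor genes were rare. Only 3 of 1128 ended at a 3′-end boundary (0.266%, 0.090 to 0.779), and of the 350 that ended in a bin of the same kind 0.857%. All 3 boundaries were weak: Olfr1197 at 0.429, Olfr459 at 0.327 and Olfr502 at 0.253. Each of the 3 genes was on the minus strand and ended between 6.27 and 9.40 kb before the midpoint. The odorant receptor genes are short, with a median of 5.99 kb, and most did not end in a bin that met the rule. They were also scarce at autosomal boundaries of any kind. There 69 of the 1128 had their 3′ end and 67 their TSS, against 2682 and 2744 of all 20807 coding genes. Vomeronasal receptors had 6 of 329 (1.82%), and 2.63% of those in such bins, of which Vmn1r1 lay at a boundary of 1.56.

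None of the 45 proteasome subunits, 67 replication-dependent histones or 57 clustered protocadherins ended at a 3′-end boundary. Of these, 21 proteasome subunits, 2 histones and 37 protocadherins ended in a bin of the same kind, so for the histones the rule itself allowed almost none. The protocadherins lie side by side in clusters, so the 37 are not independent cases. At autosomal boundaries of any kind 5 proteasome subunits, 10 histones and 0 protocadherins ended, against 2682 of all 20807 genes.

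Among 20 genes of mature olfactory neurons, Ric8b, which helps the olfactory G protein to mature, ended at a weak boundary of 0.433, and Pde1c, a phosphodiesterase of olfactory cilia, at one of 0.318. Of 18 regulators of odorant receptor choice and nuclear organisation, Cbx5, a heterochromatin protein, ended at a boundary of 1.04, Ebf3 at 0.659 and Ebf1 at 0.360. The shares, 2 of 20 (10.0%, 2.79 to 30.1) and 3 of 18 (16.7%, 5.84 to 39.2), have wide intervals. That of the first includes the 5.11% of all genes and that of the second starts just above it, in lists chosen with earlier results known. Both lists hold long genes (medians 61.8 and 63.7 kb), which the rule favours. In bins of the same kind 16 genes of each list ended, and the shares of these were 12.5% and 18.75%. The like share over all genes was 7.78%. No interval was computed for the 2 shares of 16 genes, which rest on 2 and 3 genes, so no difference is read from them. None of 6 genes of immature neurons and none of 13 genes of other cells of the mucosa ended at a 3′-end boundary. Only 4 genes of each of these lists ended in a bin of the same kind, so for them the rule allowed few.

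Other annotated features were counted that the rule did not use. The polyadenylation signal AATAAA stood in the last 50 bases of 675 of the 1063 gene models (63.5%, 60.6 to 66.3), against 58.7% of all autosomal coding genes. The signal was not counted for genes that ended in bins of the same kind, so the part of the rule's choice of genes was not tested. A TSS of a long non-coding RNA lay in 120 of the 917 windows (13.1%), against 10.5% of bins of the same kind. With one, the median strength was 0.610 (0.549 to 0.718), and with none 0.690 (0.650 to 0.743). The strong shares were 65.8% and 65.5%.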

How the data were processed

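The 2 biological replicates of in situ Hi-C form 1 group. The authors aligned to GRCm38, pooled both replicates' contacts and called boundaries on the pooled matrix, per the design text of the series. The strength in the deposited list is the authors' score for each interval, and the sources used here do not give its scale, the caller or the aligner. Read depth is unknown, because the list holds no counts, and no value has a replicate error. Strength was used only to describe, rank and filter boundaries within the list.

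Boundaries were joined to GENCODE M21 gene models and to the GRCm38 sequence with numpy 2.4.6 and pandas 2.3.3 in Python 3.11.15. A TSS was the 5′ end and a 3′ end the last base of a gene model, and both were counted in the interval widened by 10 kb. All 480659 complete autosomal bins of 5 kb were classified in the same way as a background. Shares have 95% Wilson intervals, differences of shares Newcombe intervals and medians binomial intervals, and they cover counting error only. Neighbouring boundaries and genes depend on one another and replicate no condition, so no p-value was computed. Classification was checked by brute force and on simulated intervals. The boundaries and gene lists were chosen with earlier results of these data known. Named genes followed a rule set by strength, distance, length and class, and 1 gene it chose is not reported here. Alternatives covered window width, boundary strength, TSS definition, gene models and motif. Insulation and compartment tracks were not analysed here.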

Additional observations from a re-analysis of the deposited data

How the results depend on the processing

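Of 74 recomputed values 46 stayed within the 95% interval of the reported value. A change of direction was defined only for the excess of strong boundaries over the rest and for the ratio of ends before and after the midpoint. Neither changed direction under any alternative run. The share of autosomal boundaries that were 3′-end boundaries (13.1%) was 5.49%, 10.3% and 14.0% with the interval widened by 0, 5 and 20 kb, 15.3% of strong boundaries, 15.5% of the 1749 strongest, 8.51% with no TSS of any transcript and 9.25% with no TSS of any gene in the window. Its ratio to bins (1.66) was 1.95 at strong boundaries and 1.97 at the 1749 strongest. The convergent share (15.3%) was 7.55%, 12.9% and 19.2% at the 3 widths, 12.9% at the 1749 strongest, 10.6% with no TSS of any transcript and 12.6% for facing pairs. The share of ends whose gene covers the midpoint (46.1%) was 50.5%, 49.5% and 39.3% at the 3 widths, 41.2% at the 1749 strongest and 40.0% with no TSS of any transcript. The CTCF motif share (33.9%) was 6.25%, 23.5% and 42.7% at the 3 widths, 37.8% at strong boundaries, 38.4% at the 1749 strongest, 25.5% with a longer motif and 86.4% with a looser one. The ratio of ends before and after the midpoint (1.38) was 1.01 with genes of all lengths. Wider windows hold more features by construction. The strong share and the median strength stayed within their intervals under every alternative run, and the excess of strong boundaries over the rest lay between 8.54 and 11.7 points. Strength limits fix those values, so they were not recomputed under them. The 2 ratios, the excess and the gene-length alternatives were added after seeing the data.

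No paired analysis was possible because the list combines both replicates, and for the same reason neither was left out in turn. Depth is unknown.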

Other observations

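On the X chromosome, which the set leaves out, 24 of 373 boundaries met the same rule (6.43%, 4.36 to 9.40). The bins of the X chromosome were not counted on their own. Whether 3′-end boundaries are over-represented there, as on the autosomes, was therefore not tested. Of the 24 boundaries, 13 were strong, the median strength was 0.536 and the range 0.208 to 1.31. The strongest lay at Ndp, which codes for norrin (chrX:16880001-16885000, 1.31), at Frmpd3 (chrX:140440001-140445000, 1.09) and at Satl1 (chrX:112370001-112375000, 1.06). Convergent pairs were found at 2 of the 24.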
